A study of Rattus norvegicus and Ovis aries with 113 samples.

Results

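Basal ganglia and neocortex of the same sheep were compared by RNA sequencing. The libraries were taken by their labels: the 5 labelled basal ganglia, each set against the 5 neocortical regions of the same animal (frontal, motor, prefrontal, posterior parietal and visual cortex). These are 30 libraries, 5 and 25, of 113 sheep and rat libraries in the series. The study collected brain and reproductive samples of both species to look for genes that connect neural and reproductive functions. All 30 libraries come from 5 untreated males past puberty, numbered 687, 688, 690, 694 and 699, with tissue taken from the same hemisphere, so sex and treatment do not differ between the tissues. The labels do not say which nuclei the basal ganglia dissection held or give the breed. RNA was extracted with TRIzol, treated with DNase I and prepared with the stranded mRNA kit of Kapa, and read pairs of 150 bases were sequenced on a NovaSeq X Plus. No cerebellum, pons, hippocampus or entorhinal cortex library enters the comparison.

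The basal ganglia are a group of forebrain and midbrain nuclei that select and scale movements and habits. Their largest entry structure is the striatum, where most neurons are GABAergic spiny projection neurons. Those of the direct pathway carry the dopamine D1 receptor, substance P and dynorphin, and those of the indirect pathway carry the D2 receptor, the adenosine receptor ADORA2A and enkephalin. Both receive glutamate from cortex and thalamus and dopamine from the midbrain, and large cholinergic interneurons act on both. The neocortex is built mainly of glutamatergic projection neurons in layers, with a minority of GABAergic interneurons.

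Library totals were 50.9 to 58.8 M counts (M, 1000000 counts) in basal ganglia and 49.2 to 72.4 M in neocortex, and 15050 to 15554 and 15250 to 15974 genes reached 1 CPM (count per 1000000 counts). Pairs of basal ganglia libraries had a median Pearson correlation of 0.969 across genes on the log2 scale, pairs of neocortical libraries 0.970, and pairs across the tissues 0.921. A few libraries stood apart. The motor cortex library of sheep 687 had the lowest neocortical values of CUX2 (9.66 CPM), SLC30A3 (6.87) and VIP (12.0), the highest of FEZF2 (29.7), and 731 CPM of the choroid plexus gene TTR. Its SLC17A7, a marker of cortical glutamatergic neurons, lay within the range of the others at 509 CPM. The frontal cortex library of sheep 699 and the posterior parietal library of sheep 694 were the highest in meningeal genes. Counts of calls without these 3 libraries are given below for all genes, and for gene lists where they moved by over 1.5 times. Basal ganglia values are listed in the order of sheep 687, 688, 690, 694 and 699, as CPM scaled by the trimmed mean of M values (TMM). Neocortical values are given as the lowest to the highest of 25 libraries with their median.

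Of 31304 genes in the tables, 21119 passed the low-count filter and were tested with edgeR's quasi-likelihood test, paired by animal. A gene was called when its Benjamini-Hochberg adjusted p was below 0.05 and its log2 fold change (basal ganglia over the summed neocortex of the same animal) was at least 1 in size. By this rule 940 genes (4.45%) were higher in basal ganglia and 1329 (6.29%) lower, 2269 in all (10.7%). Without the 3 libraries named above the counts were 987 and 1340. The shares of 4.45% and 6.29% are the background for the counts of list members called below. The change had the same direction in all 5 animals for 897 of the 940 and 1305 of the 1329. The 5 basal ganglia libraries all lay above the 25 neocortical ones for 535 genes (2.53%) and all below them for 611 (2.89%), and 425 (2.01%) and 471 (2.23%) of these were also called. At least 8-fold differences, a log2 fold change of 3 or more, were seen for 166 of the called genes in the higher direction and 240 in the lower. The median log2 fold change of all genes tested was -0.01. P-values here rest on the spread between 5 animals. In these bulk samples, fewer cells of a type and less RNA per cell cannot be told apart.

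**Figure D1:**
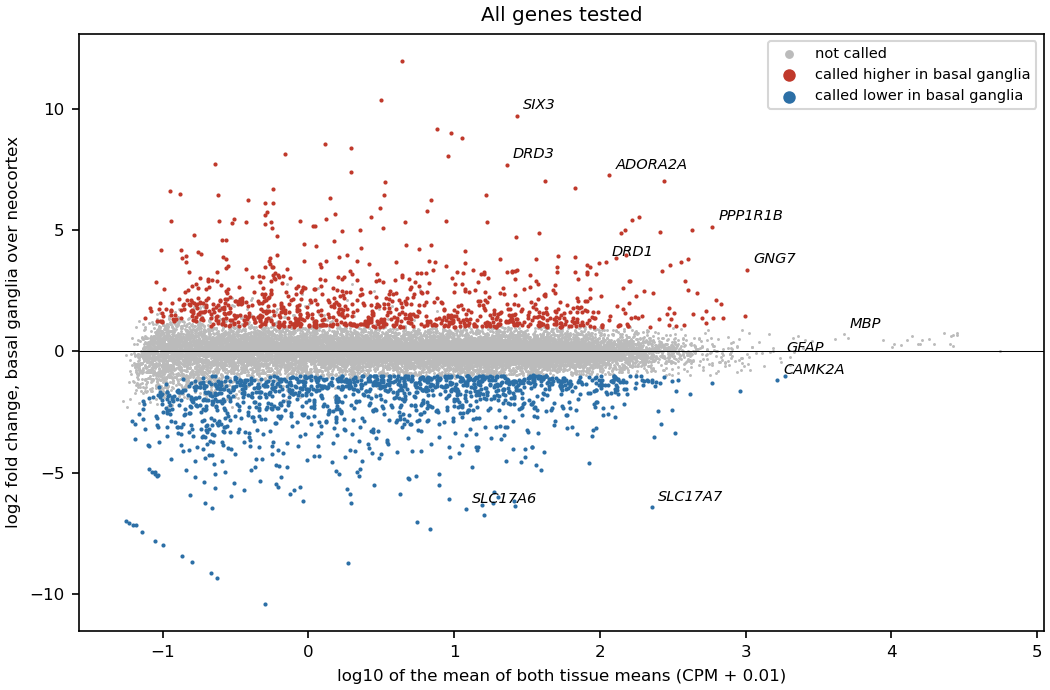
Log2 fold change of basal ganglia over neocortex (vertical axis) against the log10 mean level of both tissues in CPM plus 0.01 (horizontal axis) for all 21119 genes, coloured red where called higher, blue where called lower and grey otherwise. The 940 red and 1329 blue points are spread over most levels, and abundant glial genes such as MBP and GFAP lie near 0.

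Genes of spiny projection neurons were higher in basal ganglia as a group. Of 20 listed genes common to both output pathways, 17 were called higher, against 4.45% of all genes, and none lower, with a median log2 fold change of 3.33. By edgeR no member of this list, of the interneuron list in the higher direction or of the cortical excitatory list in the higher direction reached even an unadjusted p below 0.05 that way, and DESeq2 and voom called none there either. The level of this list, the mean of log2(CPM + 1) over its genes, was 7.81, 7.57, 7.47, 8.35 and 8.48 in the basal ganglia libraries and 4.22 to 5.07 (median 4.78) in neocortex, so the tissues did not overlap. PPP1R1B encodes DARPP-32, the phosphatase inhibitor that integrates dopamine signals in these neurons. It stood at 964, 678, 666, 1531 and 1898 CPM in basal ganglia and at 18.8 to 47.0 CPM (median 27.7) in neocortex, a log2 fold change of 5.14 ± 0.33 (SE, adjusted p = 3.38e-05). Every basal ganglia library exceeded the highest neocortical one, and sheep 694 and 699 were the highest of the 5. RGS14, a regulator of G protein signalling, was at 226, 205, 182, 456 and 564 CPM against 2.75 to 18.1 CPM (median 6.10) (5.43 ± 0.41, adjusted p = 7.41e-05). Sheep 694 and 699 were again the highest, above sheep 687, 688 and 690.

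The other called members of this list carry the signalling and channel machinery of the same neurons. GNAL and GNG7 encode the G protein subunits that couple D1 and adenosine receptors to adenylyl cyclase. GNAL was at 326, 237, 229.9, 305 and 327 CPM against 6.68 to 32.1 CPM (median 17.4), a log2 fold change of 3.95 ± 0.17 (adjusted p = 8.37e-06). GNG7 was at 1653, 1433, 1441, 2184 and 2663 CPM against 116 to 260.3 CPM (median 172) (3.36 ± 0.18, adjusted p = 1.71e-05). Both were higher in each basal ganglia library than in any neocortical one. The log2 fold change was 4.93 for the ion channel family member ANO3, 3.85 for STRIP2, 3.80 for RASD2 (Rhes), a small GTPase of the striatum, 3.48 for RGS9, 3.20 for GPR149, 2.28 for the striatum-enriched phosphatase PTPN5 and 1.82 for the actinin ACTN2. SCN4B, a sodium channel beta subunit, had 174, 166, 141, 678 and 581 CPM and 7.82 to 139 CPM (median 40.4) in neocortex. Its call (2.49 ± 0.58, adjusted p = 0.0176) was lost without sheep 694, at a log2 fold change of 2.07 and an adjusted p of 0.0530. The 3 members that were not called were potassium and calcium channel genes: KCNH4 (0.98), KCNIP2 (0.68) and CACNA2D3 (0.91). KCNH4 was called higher without sheep 688 or 690 (1.22 and 1.19), without the pairing (1.11) and with the 30 libraries kept apart (1.11). CACNA2D3 was called higher without sheep 687 or 688 (1.09 and 1.06) and with the libraries kept apart (1.01). SYNDIG1L, also called capucin, was outside the list and among the 15 largest rises that met the naming rule. The rule took called genes with at least 10 CPM on average in the higher tissue, no overlap between tissues and no placeholder symbol. SYNDIG1L was at 218, 169, 172, 576 and 685 CPM against 2.27 to 20.6 CPM (median 5.59) (5.52 ± 0.46, adjusted p = 1.10e-04).

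**Figure D2:**
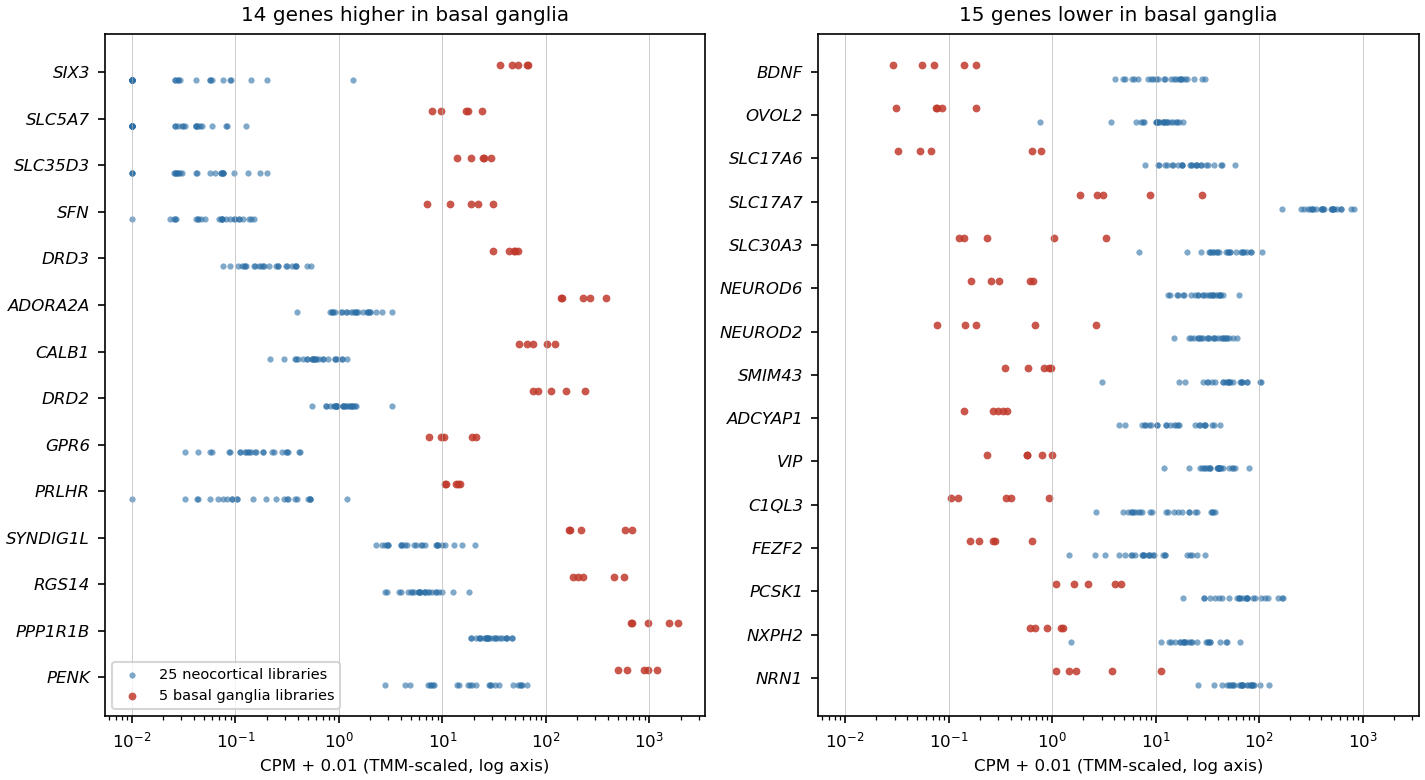
TMM-scaled CPM plus 0.01 (log axis) of 14 of the 15 genes with the largest rise and the 15 with the largest fall in basal ganglia among those that met the naming rule, with red points for the 5 basal ganglia libraries and blue points for the 25 neocortical libraries. The rule required that the tissues do not overlap, and the gaps are widest for genes close to 0 in one tissue, such as SIX3 and BDNF.

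Genes of the indirect and the direct pathway were both higher. All 6 indirect pathway genes listed were called, with a median log2 fold change of 5.62, and 7 of 9 direct pathway genes, with a median of 3.66. The receptors and peptides that define the pathways were among them. DRD2 was at 111, 84.8, 75.0, 155 and 241 CPM in basal ganglia and 0.541 to 3.23 CPM (median 1.10) in neocortex, a log2 fold change of 6.74 ± 0.30 (adjusted p = 8.86e-06). ADORA2A, the adenosine receptor of this pathway, was at 226, 140.3, 142, 266 and 378 CPM against 0.380 to 3.23 CPM (median 1.41) (7.24 ± 0.21, adjusted p = 2.87e-06). Both were highest in sheep 699 and no library overlapped. PENK, the enkephalin precursor, reached 979.7, 602, 497, 888 and 1192 CPM against 2.77 to 65.3 CPM (median 19.5) (5.01 ± 0.31, adjusted p = 3.10e-05). GPR6, an orphan receptor of indirect pathway neurons, was at 10.4, 7.43, 9.59, 19.2 and 21.3 CPM against 0.0227 to 0.414 CPM (median 0.131) (6.24 ± 0.27, adjusted p = 8.37e-06). GPR52 (3.36) and the transcription factor SP9 (1.11) completed the list. The call of SP9 ended without sheep 694, at a log2 fold change of 0.96.

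In the direct pathway, DRD1 was at 178, 172, 150.2, 256 and 262 CPM against 4.23 to 27.4 CPM (median 14.9), a log2 fold change of 3.66 ± 0.19 (adjusted p = 1.71e-05). The precursor of substance P, TAC1, was at 372, 189.5, 172, 346 and 279 CPM against 5.46 to 14.0 CPM (median 8.77) (4.88 ± 0.22, adjusted p = 8.38e-06). PDYN, the dynorphin precursor, was at 422, 325, 173, 194 and 323 CPM against 2.34 to 25.7 CPM (median 6.16) (4.996 ± 0.25, adjusted p = 1.43e-05). The 3 genes did not share an order of animals: DRD1 was highest in sheep 699 and 694, TAC1 and PDYN in sheep 687. SLC35D3, a nucleotide sugar transporter family member, was close to absent in neocortex, at 0 to 0.194 CPM (median 0.0326), and reached 29.2, 19.0, 13.8, 25.4 and 24.7 CPM in basal ganglia (8.80 ± 0.31, adjusted p = 4.76e-06). ISL1, a LIM homeobox gene of direct pathway and cholinergic neurons, was low in basal ganglia too, at 1.71, 0.835, 3.55, 0.365 and 0.315 CPM, with 5 counts in all 25 neocortical libraries together. CHRM4 (2.46) and EBF1 (1.35) were also called, while SFXN1 (0.42) and ZNF521 (0.30) were not. On the list level, the 5 basal ganglia libraries lay closer together for the direct pathway (5.31, 5.07, 5.00, 5.17 and 5.26) than for the indirect pathway (6.06, 5.72, 5.65, 6.62 and 6.62).

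Receptors for dopamine differed by subtype. Of 13 genes of dopamine reception, synthesis and clearance, 3 were called higher and 1 lower, against 4.45% and 6.29% of all genes. Their median log2 fold change was 0.12. DRD3, a D2-like receptor, was at 49.9, 49.3, 30.8, 43.8 and 54.3 CPM against 0.0664 to 0.522 CPM (median 0.180), a log2 fold change of 7.69 ± 0.22 (adjusted p = 2.87e-06). With DRD1 and DRD2 it made up the 3 that were higher. The D1-like receptor DRD5 was lower, at 0.152, 0.313, 0.209, 0.230 and 0.495 CPM against 0.222 to 2.22 CPM (median 0.865) (-1.62 ± 0.24, adjusted p = 0.00211). DRD4 had a log2 fold change of 0.83 and was not called. Transcripts of the dopamine neurons themselves were scarce in both tissues: TH, the rate-limiting enzyme of dopamine synthesis, was at 0.477, 0.418, 0.314, 0.979 and 0.675 CPM against 0 to 1.32 CPM (median 0.271), and the dopamine transporter SLC6A3 at 0.130, 0.0870, 0.418, 0.250 and 0.248 CPM against 0.0828 to 0.591 CPM (median 0.267). Neither was called (log2 fold changes 0.73 and -0.43), nor was the vesicular monoamine transporter SLC18A2 (-0.17). TH was called higher in the edgeR fit without sheep 690 (1.06, adjusted p 0.0209).

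Some opioid and tachykinin genes rose, among them both ligands and receptors. Of 13 listed genes 6 were called higher and 1 lower, against 4.45% and 6.29% of all genes (median log2 fold change 0.75). Besides PENK, PDYN and TAC1 the higher genes were 3 receptors. The mu receptor OPRM1, a marker of striosomes, was at 38.9, 45.2, 33.9, 34.4 and 38.9 CPM against 0.558 to 6.21 CPM (median 2.31) (3.80 ± 0.12, adjusted p = 3.85e-06). The kappa receptor for dynorphin, OPRK1, was at 74.9, 71.7, 49.5, 59.8 and 51.5 CPM against 4.55 to 22.3 CPM (median 13.5) (2.15 ± 0.12, adjusted p = 2.25e-05). TACR1, the substance P receptor, had a log2 fold change of 1.79 ± 0.18 (adjusted p = 3.25e-04). The delta receptor OPRD1 (0.27) and the nociceptin receptor OPRL1 (-0.43) were not called, and PNOC, the precursor of nociceptin, was lower (-1.64 ± 0.25, adjusted p = 0.00252). PRLHR, the receptor for prolactin-releasing peptide, was not on these lists and was among the 15 largest rises under the naming rule. It was at 14.8, 14.2, 10.7, 10.5 and 13.4 CPM against 0 to 1.18 CPM (median 0.140) (5.79 ± 0.33, adjusted p = 2.30e-05). Its 5 basal ganglia values lay close together.

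Cyclic nucleotide signalling, through which dopamine and adenosine receptors act, held genes that moved in both directions. Among the 32 genes, 13 were called higher and 3 lower, against 4.45% and 6.29% of all genes (median log2 fold change 0.29). Several of the higher genes are also on the spiny projection neuron list and were counted there, among them ADCY5, PDE10A, PDE1B, PDE7B and PPP1R1B. The higher genes included the adenylyl cyclase ADCY5, at 322, 254, 291, 427 and 673 CPM against 43.4 to 106 CPM (median 71.2) (2.39 ± 0.19, adjusted p = 1.004e-04). Other adenylyl cyclases were lower: ADCY2 was at 26.0, 38.5, 43.0, 27.9 and 21.7 CPM against 45.9 to 238 CPM (median 159) (-2.31 ± 0.11, adjusted p = 1.17e-05), and ADCY8 had a log2 fold change of -2.07. ADCY3 was called higher (1.33), and ADCY1 (0.03) and ADCY9 (-0.04) were not called. Phosphodiesterases, which break down cyclic nucleotides, divided in the same way. PDE10A was at 487, 588, 462, 1114 and 725 CPM against 20.1 to 81.9 CPM (median 49.6) (3.68 ± 0.17, adjusted p = 1.14e-05), and PDE1B at 411, 312, 306, 527 and 904 CPM against 25.3 to 69.1 CPM (median 43.0) (3.30 ± 0.31, adjusted p = 1.96e-04). PDE1C (1.75) and PDE7B (1.84) were also higher. PDE1A was lower (-1.35 ± 0.39, adjusted p = 0.0405), a call lost without sheep 687, 694 or 699, with adjusted p of 0.0970 to 0.145, and without the pairing by animal (0.103). PDE4B (-0.06), PDE4D (-0.64) and PDE2A (0.55) were not called. Among the phosphoproteins of the pathway, ARPP21 (2.09), ARPP19 (1.38) and PPP1R1A (1.86) rose with PPP1R1B.

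RGS proteins shorten G protein signals. Of 16 tested, 5 were called higher and 2 lower, against 4.45% and 6.29% of all genes (median log2 fold change 0.27). RGS9, the striatal partner of D2 receptor signalling, was at 114, 65.5, 55.0, 97.2 and 134 CPM against 5.83 to 10.9 CPM (median 7.58) (3.48 ± 0.25, adjusted p = 5.90e-05). RGS8 was at 181, 224, 193, 340.0 and 475 CPM against 19.8 to 53.5 CPM (median 32.9) (2.91 ± 0.25, adjusted p = 1.25e-04). With RGS14, RGS2 (1.96) and RGS16 (1.91) these were the 5 that rose. RGS9 and RGS14 were also counted in the spiny projection neuron list. RGS11 (-1.30) and RGS7 (-1.05) were lower, and RGS7 dropped under the fold threshold without sheep 688 or 690 (-0.993 and -0.996). RGS4 (-0.80) was not called.

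Cholinergic neuron genes were higher, at low levels. Of 8 listed, 7 were called higher, with a median log2 fold change of 5.72. The list level was 2.43, 2.60, 3.23, 2.71 and 2.81 in basal ganglia and 0.54 to 0.90 (median 0.71) in neocortex. CHAT, the enzyme that makes acetylcholine, was at 2.75, 4.75, 12.3, 6.91 and 5.81 CPM against 0 to 0.194 CPM (median 0.0628) (6.45 ± 0.39, adjusted p = 2.84e-05). SLC5A7, the choline transporter, was at 7.86, 17.0, 24.1, 17.8 and 9.77 CPM against 0 to 0.117 CPM (median 0.0202) (9.17 ± 0.42, adjusted p = 1.05e-05). Both were highest in sheep 690, which was not among the highest for the spiny projection neuron genes. The vesicular transporter SLC18A3 (2.21, 3.36, 4.41, 3.84 and 5.51 CPM), with 16 counts in the 25 neocortical libraries together, was called as well. The LIM homeobox gene LHX8, needed for cholinergic fate, was at 2.34, 2.78, 4.03, 3.13 and 1.51 CPM against 0 to 0.163 CPM (median 0.0227) (6.29 ± 0.34, adjusted p = 1.71e-05). ECEL1 had a log2 fold change of 3.69 and the acetylcholine esterase ACHE one of 1.23.

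Acetylcholine receptors went mostly the other way. Of 12 tested, 8 were called lower, against 6.29% of all genes, and 2 higher, with a median log2 fold change of -1.19. The higher ones were the muscarinic receptors CHRM4 and CHRM5. CHRM4, which direct pathway neurons carry, was at 26.2, 17.6, 19.3, 31.3 and 45.2 CPM against 1.45 to 10.0 CPM (median 4.69) (2.46 ± 0.29, adjusted p = 6.70e-04). CHRM5 was at 8.71, 6.70, 5.52, 3.99 and 10.6 CPM against 0.0787 to 14.2 CPM (median 0.344) (3.67 ± 0.55, adjusted p = 0.00219). The neocortical maximum of CHRM5 was the motor cortex library of sheep 687, above every basal ganglia library, and the next highest was 0.933 CPM. Without sheep 687 the log2 fold change of CHRM5 was 4.27. Nicotinic subunits were the larger part of those that fell: CHRNA4 was at 0.693, 0.940, 1.17, 0.326 and 0.765 CPM against 5.08 to 16.4 CPM (median 7.85) (-3.56 ± 0.24, adjusted p = 4.38e-05), CHRNA3 and CHRNA5 had log2 fold changes of -2.999 and -3.50, and CHRNA7 one of -1.75. CHRM1 (-0.16) and CHRNB2 (-0.06) were not called. Of the 8 lower calls, 3 were lost when an animal was left out. CHRM2 (-1.17) was at -0.99 without sheep 687. CHRM3 (-1.21) had adjusted p of 0.0994 to 0.158 without sheep 687, 688 or 690, and 0.0535 without the pairing by animal. CHRNA6 (-1.78) had adjusted p of 0.0695 to 0.116 without sheep 687, 688, 694 or 699, and 0.0873 without the pairing.

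GABAergic genes did not move together. None of 14 interneuron genes was called higher and 6 were called lower, with a median log2 fold change of -0.87. VIP, of an interneuron class prominent in cortex, was at 0.563, 0.557, 0.794, 0.979 and 0.225 CPM against 12.0 to 79.8 CPM (median 40.1) (-6.003 ± 0.29, adjusted p = 1.33e-05). PVALB, of the fast-spiking interneurons found in both cortex and striatum, was at 1.82, 1.57, 1.59, 5.16 and 3.74 CPM against 3.80 to 99.5 CPM (median 26.7) (-3.59 ± 0.31, adjusted p = 1.34e-04). CRHBP (-2.44), NDNF (-1.98) and ADARB2 (-1.24) were also lower, as was RELN (-1.23), which lost its call without sheep 687 (adjusted p 0.0751) or 690 (log2 fold change -0.92). Markers of other interneurons known from the striatum were not called: SST (104, 78.4, 74.0, 119 and 163 CPM against 63.8 to 327 CPM (median 145), -0.61), NPY (40.5, 28.8, 30.4, 52.8 and 65.2 CPM against 17.1 to 80.5 CPM (median 34.8), 0.19), NOS1 (-0.62) and CALB2 (-0.54). For GABA itself, the synthesis enzyme GAD2 was at 244, 247, 245, 353 and 385 CPM against 97.1 to 203 CPM (median 143) (1.02 ± 0.14, adjusted p = 0.00143), and the vesicular transporter SLC32A1 had a log2 fold change of 1.07. Both calls lay close to the fold threshold: GAD2 was at 0.999 without sheep 694 and 0.90 without sheep 699, and SLC32A1 at 0.90 without sheep 699. GAD1 was not analysed here.

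Most transcription factors known from the building of the striatum were higher in these grown animals. Of 21 listed, 14 were called higher and 2 lower, with a median log2 fold change of 1.25. SIX3, a homeobox gene needed for indirect pathway neurons, was at 67.7, 35.8, 46.6, 53.2 and 66.4 CPM against 0 to 1.35 CPM (median 0.0178) (9.70 ± 0.59, adjusted p = 2.91e-05). The neocortical maximum was again the motor cortex library of sheep 687, the next highest being 0.194 CPM, and the log2 fold change was 10.68 without sheep 687 and 10.74 without the 3 libraries that stood apart. BCL11B, also called CTIP2, was at 173, 140.2, 115, 197 and 162 CPM against 9.20 to 19.7 CPM (median 13.5) (3.49 ± 0.14, adjusted p = 7.06e-06). MEIS2 (2.05), FOXP1 (1.25), DLX6 (2.46), DLX5 (1.31) and ZNF503 (1.18) were higher. Retinoid receptors were among them: RXRG was at 67.8, 48.8, 47.2, 84.3 and 121 CPM against 0.518 to 16.9 CPM (median 1.62) (4.89 ± 0.32, adjusted p = 4.28e-05), and RARB had a log2 fold change of 1.44. FOXP2 (1.16) fell under the fold threshold without sheep 690 (0.92). The genes called lower were DLX1 and SP8. DLX1 (-1.55 ± 0.36, adjusted p = 0.0178) had an adjusted p of 0.0576 without sheep 690. SP8 (0.303, 0.278, 0.293, 3.63 and 0.0225 CPM against 0.523 to 5.06 CPM (median 2.12), -2.51 ± 0.73) lost its call without sheep 687, 688, 690 or 699 (adjusted p 0.0629 to 0.121) and without the pairing (0.251).

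Genes of the 2 striatal compartments, striosomes and matrix, were listed together. Of 10 tested 2 were called higher and 2 lower, against 4.45% and 6.29% of all genes (median log2 fold change -0.07). CALB1, the calcium-binding protein that marks the matrix, was at 121, 102, 55.4, 75.0 and 66.0 CPM against 0.205 to 1.18 CPM (median 0.565) (7.00 ± 0.20, adjusted p = 2.87e-06). OPRM1, of the striosomes, was the other. GDA, a guanine deaminase, was lower (-2.34 ± 0.39, adjusted p = 0.00379), and SV2B, a synaptic vesicle protein, was lower (-1.10 ± 0.29), with adjusted p of 0.0682 to 0.115 without sheep 687, 688 or 690. KREMEN1 (-0.13), BACH2 (0.00) and SEMA5B (-0.52) were not called. Markers of the pallidum and basal forebrain, which a basal ganglia dissection could include, gave 1 higher and 3 lower of 10 (median -0.53). The higher gene was NKX2-1, which specifies pallidal and interneuron lineages, at 3.79, 2.87, 4.93, 3.05 and 3.15 CPM against 0.158 to 1.03 CPM (median 0.397) (3.16 ± 0.24, adjusted p = 7.41e-05). NPAS1 (-2.20), PVALB and ZIC2 (-1.48) were lower. PVALB is also on the interneuron list. ZIC2 was highest in the posterior parietal library of sheep 694 (43.9 CPM) and the frontal library of sheep 699 (43.0 CPM), which were the highest in meningeal genes. Whether the dissection held pallidum was not tested.

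Genes of cortical projection neurons were lower in basal ganglia. Of 16 listed, 12 were called lower and none higher, with a median log2 fold change of -5.02. The list level was 2.47, 3.18, 2.73, 2.50 and 2.51 in basal ganglia and 4.64 to 5.83 (median 5.31) in neocortex. SLC17A7, the vesicular glutamate transporter of cortical neurons, was at 3.10, 27.9, 8.72, 1.86 and 2.7 CPM against 166 to 823 CPM (median 416) (-6.41 ± 0.58, adjusted p = 1.80e-04). NEUROD6, a helix-loop-helix factor of these neurons, was at 0.607, 0.296, 0.648, 0.154 and 0.248 CPM against 13.1 to 64.0 CPM (median 30.8) (-6.35 ± 0.32, adjusted p = 1.46e-05). NEUROD2 was at 0.173, 2.63, 0.669, 0.134 and 0.0675 CPM against 15.0 to 60.8 CPM (median 36.1) (-6.25 ± 0.66, adjusted p = 3.93e-04). Sheep 688 was the highest of the 5 in SLC17A7 and NEUROD2 but not in NEUROD6. SLC30A3, which loads zinc into glutamatergic vesicles, was at 0.130, 3.32, 1.02, 0.115 and 0.225 CPM against 6.87 to 107 CPM (median 50.2) (-6.39 ± 0.64, adjusted p = 2.90e-04). Without sheep 688 the log2 fold changes of NEUROD2 and SLC30A3 were -7.24 and -7.23. TBR1 (-5.79), EMX1 (-5.87), NEUROD1 (-4.92) and BHLHE22 (-4.20) were also lower. Without sheep 688, TBR1 was at -6.77, EMX1 at -6.96 and NEUROD1 at -6.60. CAMK2A, an abundant synaptic kinase, differed less, at 853, 1008, 971, 966 and 1191 CPM against 1012 to 3201 CPM (median 2219) (-1.18 ± 0.12, adjusted p = 3.62e-04). NRGN, a postsynaptic calmodulin-binding protein, was not called (-0.13 ± 0.43), with 799, 445, 408, 1533 and 2221 CPM in basal ganglia and 437 to 1895 CPM (median 860.4) in neocortex.

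The rest of the 15 largest falls under the naming rule were genes of several kinds. BDNF, the neurotrophin that cortical neurons supply to the striatum, was at 0.130, 0.174, 0.0627, 0.0192 and 0.0450 CPM against 4.00 to 30.1 CPM (median 12.4) (-7.32 ± 0.30, adjusted p = 7.13e-06). SLC17A6, the other vesicular glutamate transporter, typical of thalamus, was at 0.0433, 0.766, 0.627, 0.0576 and 0.0225 CPM against 7.82 to 58.5 CPM (median 22.1) (-6.50 ± 0.57, adjusted p = 1.41e-04). Without sheep 690 its log2 fold change was -7.14. It was the only one of 8 thalamic list genes called in either direction. Among peptide genes, ADCYAP1, the precursor of the peptide PACAP, was at 0.130, 0.261, 0.355, 0.326 and 0.293 CPM against 4.44 to 41.6 CPM (median 15.1) (-6.07 ± 0.20, adjusted p = 3.86e-06). PCSK1, which cleaves prohormones, had a log2 fold change of -4.91 ± 0.38 (adjusted p = 8.40e-05). Secreted synaptic and growth factors were C1QL3 (-5.52), NXPH2 (-4.78) and NRN1 (-4.68). The zinc finger gene OVOL2 was at 0.0650, 0.174, 0.0209, 0.0768 and 0.0675 CPM against 0.760 to 18.4 CPM (median 11.8) (-7.05 ± 0.30, adjusted p = 8.37e-06), and the small membrane protein gene SMIM43 had a log2 fold change of -6.18. FEZF2, which specifies subcerebral projection neurons, was at 0.152, 0.261, 0.188, 0.633 and 0.270 CPM against 1.46 to 29.7 CPM (median 8.35) (-5.13 ± 0.36, adjusted p = 5.58e-05).

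Cortical layer genes were divided. Of 15 tested, 6 were called lower and 3 higher, against 6.29% and 4.45% of all genes (median log2 fold change -0.79). CUX2 was at 3.53, 5.15, 7.61, 3.92 and 2.57 CPM against 9.66 to 123 CPM (median 84.0) (-4.17 ± 0.18, adjusted p = 8.37e-06), and NTNG2 (-3.08), RORB (-1.32) and NR4A2 (-1.37) were also lower. Of those called higher, SYT6, a synaptotagmin, was at 69.1, 52.4, 48.7, 58.6 and 70.5 CPM against 2.35 to 17.1 CPM (median 5.06) (3.15 ± 0.15, adjusted p = 1.24e-05). TLE4, a corepressor, had a log2 fold change of 1.54. FOXP2, named above, lost its call without sheep 690. HS3ST4 (0.58) was not called. Whether the direction went with the layer was not tested.

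Serotonin receptors were called in both directions, 5 higher and 4 lower of 12 tested, against 4.45% and 6.29% of all genes. Their median log2 fold change was 0.87. HTR2A was at 69.7, 81.7, 51.0, 162 and 95.7 CPM against 1.75 to 23.2 CPM (median 8.00) (3.28 ± 0.26, adjusted p = 8.87e-05). HTR1D varied between animals and was at 15.2, 3.55, 15.6, 30.8 and 48.7 CPM against 0.174 to 1.66 CPM (median 1.02) (4.11 ± 0.45, adjusted p = 4.68e-04). HTR1B (2.44), HTR4 (1.89) and HTR6 (1.91) were the other 3. The ion channel receptor HTR3A, which VIP and related interneurons carry in cortex, was lower, at 0.0433, 0.157, 0.0836, 0.365 and 0.135 CPM against 0.475 to 7.32 CPM (median 4.27) (-4.84 ± 0.38, adjusted p = 8.96e-05). HTR7 (-3.14), HTR1A (-2.21) and HTR2B (-1.56) were lower too, and HTR2C (0.10) was not called.

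Most GABA-A and glutamate receptor genes, the latter including G protein-coupled ones such as GRM2, were not called. Of all genes, 4.45% were called higher and 6.29% lower. Of 14 GABA-A subunits 2 were higher and 4 lower (median log2 fold change -0.46). GABRA4 (1.20) and GABRD (1.32), which are found in receptors outside synapses, were higher. GABRB2, at 72.5, 89.0, 94.2, 101 and 52.5 CPM against 85.6 to 376 CPM (median 179) (-1.17 ± 0.10, adjusted p = 1.53e-04), and GABRG3 (-2.27) were lower. Of 23 glutamate receptor genes 3 were higher and 4 lower (median 0.01). None of the 4 AMPA receptor subunits GRIA1 to GRIA4 was called, their log2 fold changes being -0.25, 0.01, -0.22 and -0.06. The NMDA receptor subunits differed: GRIN2A was at 7.30, 13.3, 16.4, 24.1 and 9.27 CPM against 53.6 to 235 CPM (median 102) (-3.11 ± 0.23, adjusted p = 7.48e-05), GRIN3A was lower (-2.86), GRIN2C higher at low levels (3.16, 3.08, 1.94, 2.34 and 3.67 CPM against 0.140 to 0.781 CPM (median 0.283), 3.07), and GRIN1 (0.20) and GRIN2B (0.11) were not called. The presynaptic receptor GRM2 was lower (-3.81 ± 0.22, adjusted p = 2.31e-05), GRIK1 was lower (-1.32) and GRM4 was higher (1.72 ± 0.28, adjusted p = 0.00345). GRM8 (1.11) was higher but fell under the fold threshold without sheep 694 (0.93) or 699 (0.98).

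**Figure D3:**
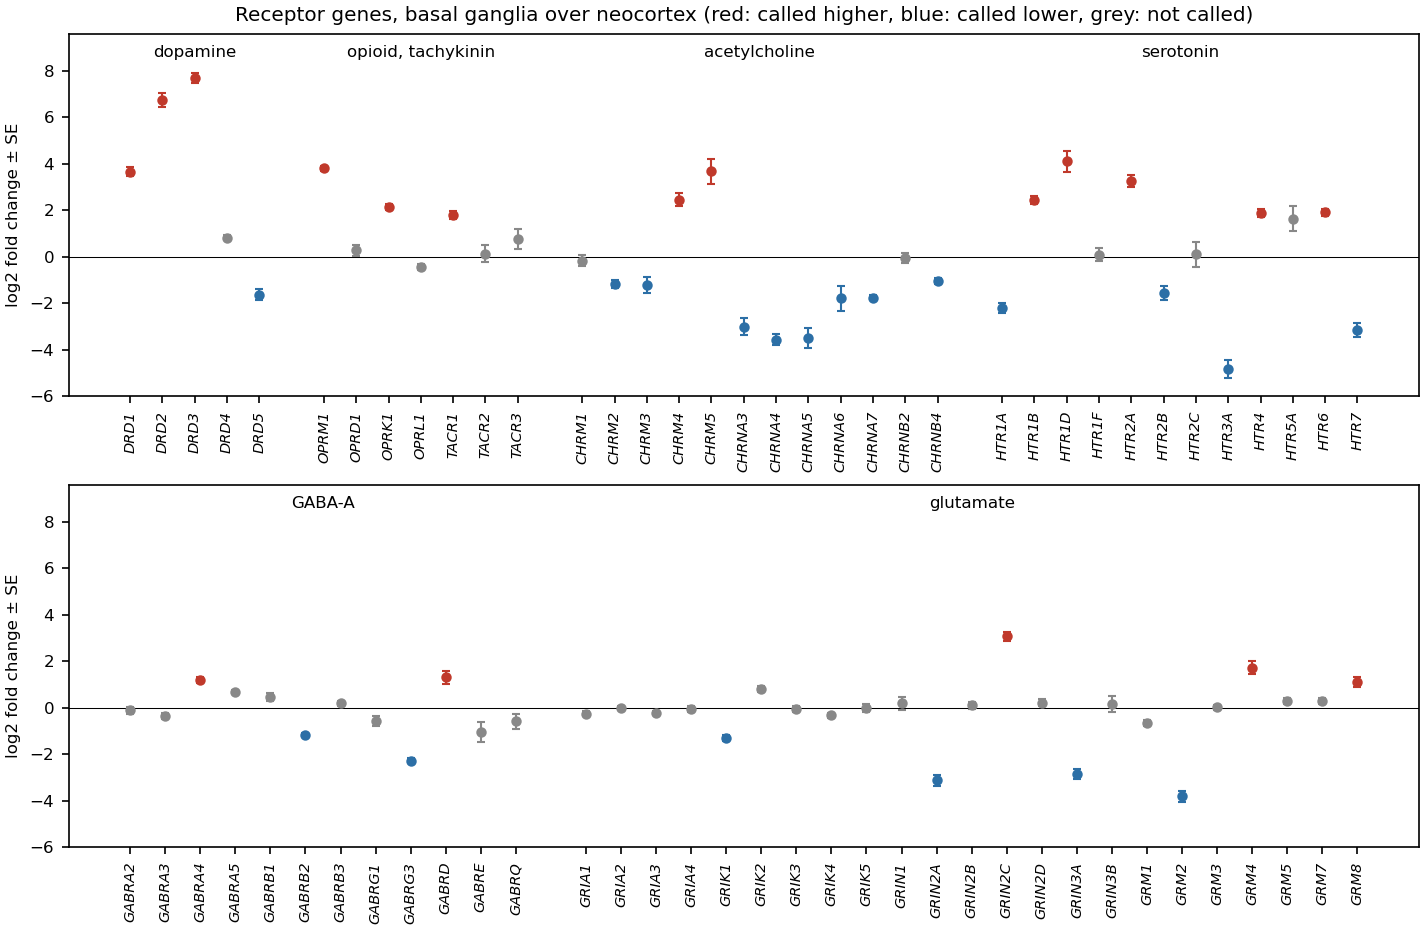
Log2 fold change of basal ganglia over neocortex (vertical axis, with SE bars) for genes of 6 receptor groups on the horizontal axis, with red points called higher, blue points called lower and grey points not called. Dopamine and opioid receptors lie mostly above 0, nicotinic subunits at or below 0, and most glutamate receptor genes near 0.

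Of 24 genes linked to inherited movement disorders 5 were called higher, against 4.45% of all genes, and none lower by edgeR, DESeq2 or voom (median log2 fold change 0.10, 2 lower at an unadjusted p below 0.05). The 5 were GNAL, ADCY5, PDE10A, ANO3 and HPCA. The first 4 are also on the list of spiny projection neuron genes above and were already counted there. HPCA was the only call outside that list. ANO3 was at 375, 488, 376, 758 and 504 CPM against 4.75 to 42.5 CPM (median 14.0) (4.93 ± 0.18, adjusted p = 4.82e-06). HPCA, the calcium sensor hippocalcin, was at 629.6, 398, 365, 860.2 and 1227 CPM against 60.1 to 294 CPM (median 105) (2.53 ± 0.31, adjusted p = 8.43e-04). HTT, the Huntington disease gene, stood at 66.2, 63.5, 61.5, 65.9 and 93.7 CPM against 45.3 to 82.6 CPM (median 65.4) (0.10), and LRRK2 (0.01) and TOR1A (0.10) were likewise not called.

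Markers of glia and other cell types were measured beside these results. All 12 oligodendrocyte genes had positive log2 fold changes and none was called by edgeR, DESeq2 or voom (median 0.66, 1 at an unadjusted p below 0.05). Their list level was 7.04, 8.14, 8.77, 7.30 and 7.16 in basal ganglia and 5.50 to 9.08 (median 6.82) in neocortex, highest in sheep 690 and 688 among the 5. All 12 astrocyte genes had negative log2 fold changes and 3 were called lower (median -0.64), with a list level of 7.61, 8.20, 7.74, 7.73 and 6.80 against 7.76 to 9.01 (median 8.41). Of these, AGT, the angiotensinogen precursor, was at 48.8, 157, 50.4, 173 and 31.5 CPM against 228 to 655 CPM (median 401) (-2.46 ± 0.33, adjusted p = 0.00135). SLC1A2 (-1.01) lost its call without sheep 687, 694 or 699 and without the pairing (adjusted p 0.0621), and FGFR3 (-1.01) lost it without sheep 690 or 699 and without the pairing (log2 fold changes -0.98, -0.82 and -0.93). GFAP (-0.29) and AQP4 (-0.17) were not called. None of 10 microglial or 7 oligodendrocyte precursor genes was called by the same tools (medians 0.22 and -0.13), and at an unadjusted p below 0.05 edgeR gave 1 and 0. The part of glial content in the neuronal gene differences was not tested.

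Some blood vessel, meningeal and ventricle lining genes were called, where 4.45% of all genes were called higher and 6.29% lower. Most calls in these 3 lists were lost in at least 1 fit without an animal. Of 10 endothelial and mural genes 1, ACTA2, was lower (-1.27), a call lost without sheep 687, 690, 694 or 699 or without the 3 libraries that stood apart. Meningeal genes gave 2 lower of 8, COL1A1 (-1.54) and SLC22A8 (-3.13). The count was 1 without the 3 libraries and 7 without sheep 688, whose basal ganglia library had the highest meningeal level of the 5 (2.43, 3.50, 2.40, 2.84 and 2.52, against 2.05 to 6.17 (median 3.19)). COL1A1 lost its call without sheep 687, 690, 694 or 699 (adjusted p 0.0984 to 0.152), and SLC22A8 without sheep 687 or 694 (0.0765 and 0.118). Ependyma and choroid plexus genes gave 1 higher and 3 lower of 10, and 2 higher and 1 lower without the 3 libraries. The water channel gene AQP1 was at 0, 0, 0, 0.0192 and 0.0225 CPM against 0.0379 to 1.21 CPM (median 0.299) and was called lower (adjusted p = 4.21e-04), with too few counts in basal ganglia for a fold. The gene called higher, KL (1.64), had an adjusted p of 0.0513 without sheep 694. TTR, the choroid plexus transport protein, was at 5.37, 29.5, 1.73, 1.497 and 1.26 CPM against 0.194 to 731 CPM (median 8.18) (-2.86 ± 0.80, adjusted p = 0.0364), and its adjusted p without sheep 687, 690, 694 or 699 was 0.0710 to 0.116. Without the 3 libraries the log2 fold change of TTR was -1.81 (adjusted p 0.106), and with the libraries kept apart it was -0.98 (0.522). KCNJ13 (-1.02) was under the fold threshold without sheep 690, 694 or 699 or the 3 libraries (-0.99 to -0.95). Lists of neighbouring structures overlapped between the tissues: the hypothalamic list stood at 0.68, 0.42, 0.60, 0.41 and 0.52 in basal ganglia and 0.43 to 0.86 (median 0.51) in neocortex, the midbrain dopamine list at 0.49, 0.26, 0.38, 0.43 and 0.41 and 0.14 to 0.40 (median 0.24), and the thalamic list at 3.32, 3.61, 3.58, 3.44 and 3.24 and 3.42 to 4.396 (median 3.91). Called members were AGRP (1.42) and AVP (-1.45) of the hypothalamic list, PITX3 (2.45) and LMX1B (-1.92) of the midbrain list, and SLC17A6 of the thalamic one. LMX1B lost its call whichever animal was left out (adjusted p 0.0641 to 0.112), and its list had none called lower without the 3 libraries.

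**Figure D4:**
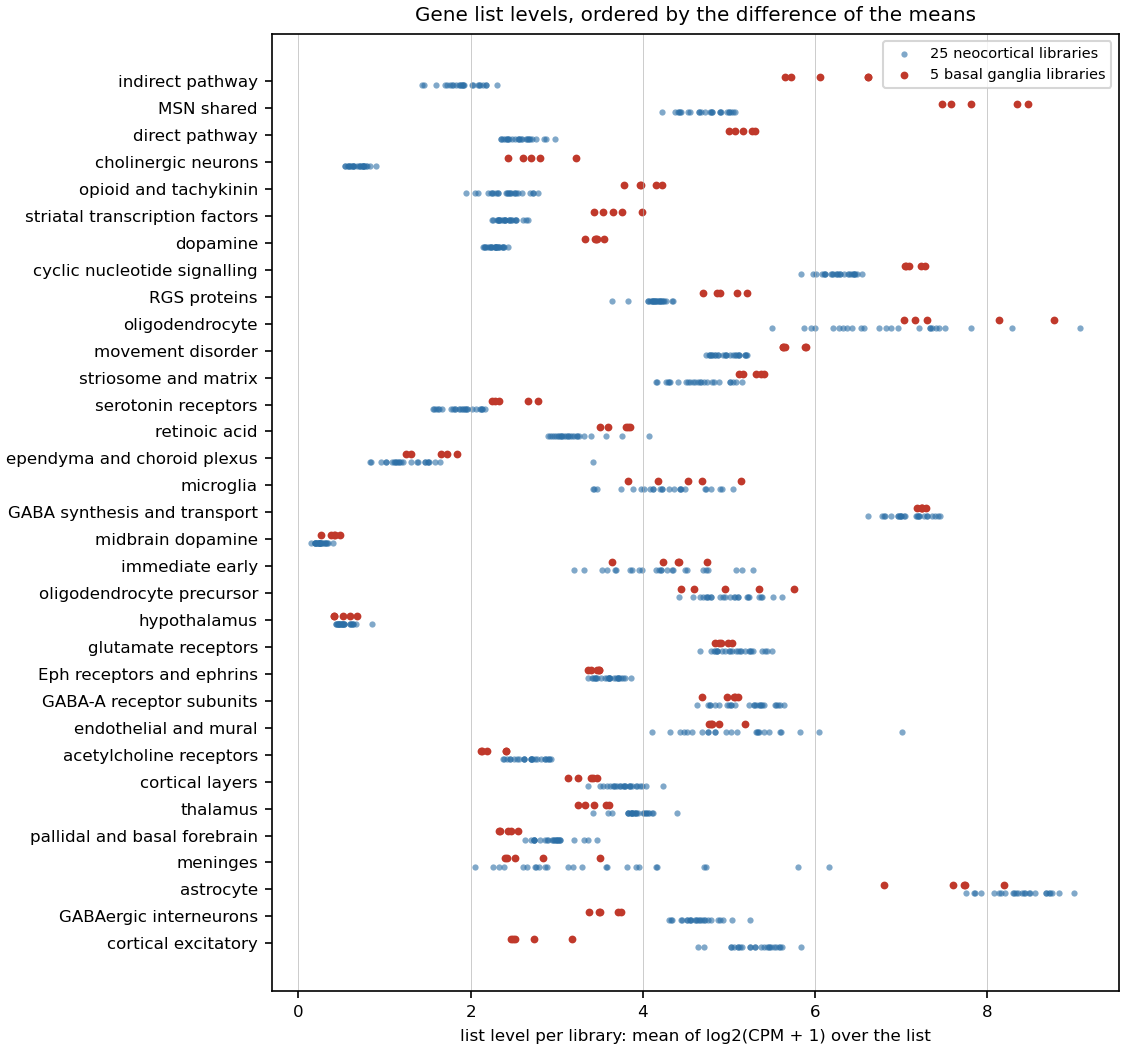
Level of each gene list per library, the mean of log2(CPM + 1) over its genes (horizontal axis), with red points for the 5 basal ganglia libraries and blue points for the 25 neocortical libraries, ordered by the difference of the means. The spiny projection neuron, cholinergic and cortical excitatory lists do not overlap between the tissues, while the glial, vascular and meningeal lists do.

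The basal ganglia libraries differed among themselves more than the neocortical profiles of the same animals. Across the 21119 genes, the median SD of log2(CPM + 1) was 0.23 over the 5 basal ganglia libraries and 0.13 over the 5 animal means of neocortex, and it was larger in basal ganglia for 17338 genes. Each neocortical value here is a mean of 5 libraries and each basal ganglia value is 1 library, so the spreads are not on an equal footing. Among genes at 10 CPM or more, the 6 with the largest SD in basal ganglia were KLK6, TMEM144, LIX1, HTR1D, PEX5L and SLC27A6. KLK6, a protease of oligodendrocytes, was at 0.758, 71.5, 45.2, 3.32 and 13.2 CPM (SD 2.26 on the log2 scale) and 0.684 to 193 CPM (median 5.13) in neocortex. TMEM144 (4.55, 26.2, 30.7, 4.78 and 3.13 CPM) and SLC27A6 (5.94, 27.1, 34.4, 7.72 and 4.32 CPM) were likewise high in sheep 688 and 690. PEX5L was lowest in sheep 699, at 57.5, 126, 203, 43.6 and 21.8 CPM, against 77.1 to 381 CPM (median 202) in neocortex (-1.57 ± 0.30, adjusted p = 0.00752). LIX1 had yet another order, with 19.5, 15.9, 11.6, 1.90 and 1.98 CPM against 0.216 to 11.6 CPM (median 0.717) (2.69 ± 0.66, adjusted p = 0.0227), high in sheep 687, 688 and 690 and low in sheep 694 and 699. The spiny projection neuron level ran against the oligodendrocyte list level in part: sheep 694 and 699 were highest in the first, and sheep 688 and 690 lowest in the first and highest in the second. With 5 animals no correlation is given for this.

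**Figure D5:**
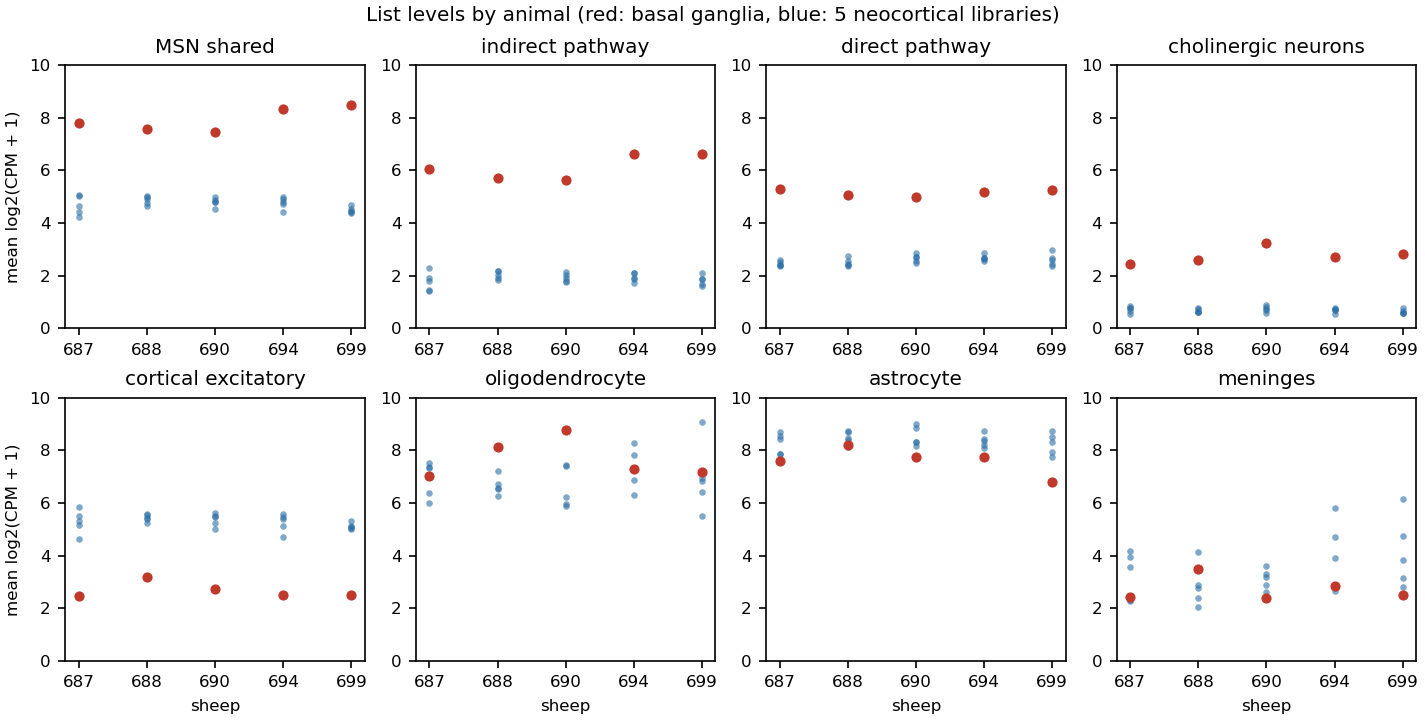
List level (vertical axis, mean of log2(CPM + 1)) by sheep (horizontal axis) for 8 gene lists, with red points for the basal ganglia library and blue points for the 5 neocortical libraries of each animal. In each of the 5 sheep the basal ganglia library lies above its own neocortical libraries for spiny projection and cholinergic neuron genes and below them for cortical excitatory genes, while its place among them varies for oligodendrocyte and meningeal genes.

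Levels in the 5 neocortical regions were close beside the gap to basal ganglia for most of the genes with the largest changes under the naming rule. Regional means of DRD2 ran from 0.877 to 1.60 CPM over the 5 neocortical regions, those of ADORA2A from 1.11 to 2.03 CPM, those of PPP1R1B from 27.1 to 36.7 CPM and those of PENK from 10.7 to 34.6 CPM. For the lower genes, SLC17A7 ran from 294 to 523 CPM, BDNF from 9.24 to 18.0 CPM and VIP from 27.9 to 47.9 CPM. Like PENK, FEZF2 was more regional than the others named here, from 5.89 to 19.2 CPM, with its highest mean in motor cortex. Leaving out any 1 region gave between 911 and 975 genes called higher and between 1203 and 1318 called lower.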

How the data were processed

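Raw counts per gene, 1 column per library and not normalized, were deposited by the authors. Per the submitters' processing notes, reads were demultiplexed with bcl2fastq v2.20, trimmed with Trimmomatic v0.39 and counted with Rsubread v2.20.0 in R v4.4.2 after alignment by STAR v2.7.5a (sheep assembly ARS-UI_Ramb_v3.0). The sources used here give neither the strand setting nor the treatment of reads with several matches, which leaves genes that overlap a neighbour or have near-identical copies uncertain. No sheep annotation was used here, so genes carry no positions.

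The counts of the 5 neocortical columns were summed per animal, and the 10 profiles were fitted in edgeR 4.0.16 (R 4.3.3) with tissue and animal as terms, TMM factors, filterByExpr and a prior count of 0.125. SEs of log2 fold changes were derived from the F statistic (size divided by the root of F). P-values were adjusted by Benjamini and Hochberg's method across 21119 genes. On simulated counts this recovered 82 of 100 genes changed by 1.5 on the log2 scale and 98 of 99 changed by 2, with 4 false calls. Those counts were drawn from the count model that edgeR fits, with the dispersions of these data. They held no differences between animals, no libraries that stood apart and far fewer changed genes than were called here. The recovery therefore does not show how the fit does on the real libraries. The numbers pair the samples because both tissues come from the same animal, per the labels. Deviations from the tissue means correlated within an animal at 0.490, 0.058, 0.329, 0.173 and 0.190 for sheep 687, 688, 690, 694 and 699, above the best correlation with another animal (-0.033, 0.294, 0.223, 0.164 and 0.112) in all but sheep 688.

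In each direction the text names 15 called genes, those of largest change that average 10 CPM or more in the higher tissue, do not overlap between libraries and have no placeholder symbol (227 and 277 met these conditions). It also names members of 33 gene lists, some of which share members, and the 6 genes of largest spread. The libraries compared and the lists were chosen with earlier results of these data known. Of the called genes, 657 have placeholder symbols and are not described. Some genes of the rule and lists, 1 of the 15 largest rises among them, are counted but not reported by name here. Alternatives were another scaling (RLE, upper quartile), no filter, no block, 30 separate libraries, DESeq2 1.42.0, limma 3.58.1 (voom), other fold thresholds, and leaving out each animal or region. Leaving out 3 neocortical libraries was added after seeing the data.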

Additional observations from a re-analysis of the deposited data

Results flagged for a closer look

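In each gene named or called among the lists (179 genes) and in each of 33 list levels, the highest and lowest of the 5 basal ganglia libraries were compared with their nearest neighbour. In 15 genes and 1 list the gap exceeded 0.71 of the whole range, the 95% limit for 5 samples. For normally distributed values, chance alone passes this limit in about 1 in 20 groups. For genes the rule was applied to CPM without a log, so this rate may not hold. All 15 genes were flagged for their highest library.

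Sheep 688 was the highest library for 7 of these genes. It had 27.9 CPM of SLC17A7 (next 8.72), 3.32 of SLC30A3 (next 1.02), 2.63 of NEUROD2 (next 0.669), 11.2 of NRN1 (next 3.74) and 0.522 of NEUROD1 (next 0.0867), which are all genes of cortical glutamatergic neurons or abundant there. It also had 6.93 CPM of ALDH1A1 (next 1.42), a retinaldehyde dehydrogenase, and 29.5 of TTR (next 5.37). Its level of the endothelial and mural list was 5.19 (next 4.88). These genes were picked because this library was extreme in them, so their being high together follows from the rule. Among genes not flagged, SLC17A6 was also highest in sheep 688 (0.766 CPM), while NEUROD6 was not (0.296 CPM). The source was not tested.

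Sheep 694 was the highest library for FEZF2, at 0.634 CPM (next 0.270), GPR52, at 88.6 (next 47.3), SP9, at 12.5 (next 7.54), SP8, at 3.63 (next 0.303), and CHRNA3, at 3.19 (next 1.10). Sheep 699 was the highest for CRABP1, at 75.2 CPM (next 47.7), and EPHB2, at 10.4 (next 8.47). Sheep 690 was the highest for GRM2, at 0.878 CPM (next 0.428). For all 15 genes the log2 fold change against neocortex kept its sign without the animal concerned, and all but SP9 (0.96) stayed called.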

How the results depend on the processing

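Each of the 30 genes of largest change under the naming rule kept its direction and its call under all 20 alternatives. These genes were picked in the same data as called, with large changes and no overlap between tissues. Their calls were therefore likely to hold, and this does not show how stable other calls are. Counts of calls over all genes moved by over 1.5 times only with the fold threshold: with the adjusted p alone 1983 genes were higher and 2691 lower (22.1% of those tested), and with a test against a fold change of 2 (glmTreat) 412 and 581. Without the animal as a block, which drops the pairing, 964 were higher and 1302 lower. Leaving out 1 animal gave 800 (without sheep 694) to 989 (without 690) higher and 1113 (without 687) to 1342 (without 688) lower. Keeping the 25 neocortical libraries apart gave 1070 and 1311, RLE factors 961 and 1304, upper quartile factors 979 and 1256, no filter 971 and 1441 of 28199 genes, DESeq2 1121 and 1487 of 23278, and voom 998 and 1305. Within the gene lists, 140 counts under an alternative moved by over 1.5 times and 1180 did not. No setting shifted the median of all genes by more than 0.04 on the log2 scale. Of 398 named or listed genes tested 174 were called, and 30 of these lost the call without 1 animal. Some that were not called gained a call in such fits, such as KCNH4 and TH. The lone basal ganglia library per animal, the unstated nuclei of the dissection and 5 animals limit what these counts can show.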

Other observations

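Retinoic acid genes, which pattern the striatum in development, were called in both directions. Of 14 tested 4 were higher and 3 lower, against 4.45% and 6.29% of all genes (median log2 fold change -0.25). CRABP1, a retinoic acid binding protein, was at 47.7, 41.3, 43.7, 47.5 and 75.2 CPM in basal ganglia and 0.246 to 11.4 CPM (median 1.19) in neocortex, so that its log2 fold change was 4.71 ± 0.32 (SE; edgeR, adjusted p = 4.78e-05). The receptors RXRG and RARB also rose. The synthesis enzyme ALDH1A1 was lower, at 1.34, 6.93, 1.07, 0.941 and 1.42 CPM against 1.79 to 66.5 CPM (median 22.1) (-3.94 ± 0.41, adjusted p = 3.64e-04), as were ALDH1A2 (-1.94) and the receptor RARA (-1.10). CYP26A1 and CYP26B1 were not analysed here.

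Eph receptors and ephrins, guidance molecules of axons, gave 3 higher and 4 lower of 22, against 4.45% and 6.29% of all genes (median -0.28). Without the 3 libraries that stood apart 1 was higher, with EPHB1 at 0.94 and EPHB6 at 0.97 (adjusted p 0.0546). EPHA5 had the largest change, at 5.91, 9.81, 9.36, 4.45 and 2.52 CPM against 21.3 to 66.4 CPM (median 33.0) (-2.71 ± 0.25, adjusted p = 2.05e-04). EPHB2 was lower (-1.25). The other 5 called genes lost the call without 1 animal: EFNB3 without sheep 688 (0.91), EPHB1 without 699 (0.93), EPHA3 without 687 (adjusted p 0.0539), EPHB3 without 687 or 694 (-0.98 in both) and EPHB6 without 687, 694 or 699 (adjusted p 0.101 and 0.111, and a log2 fold change of 0.73). None of 12 immediate early genes, which report recent activity and handling of tissue, was called by edgeR (median -0.18), with 1 higher and 3 lower at an unadjusted p below 0.05, and DESeq2 and voom each called 1 higher (EGR4).

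PITX3, a transcription factor known from midbrain dopamine neurons, was higher in basal ganglia at low levels, at 2.77, 0.696, 0.982, 1.77 and 1.31 CPM against 0.0490 to 0.681 CPM (median 0.239) (2.45 ± 0.24, adjusted p = 2.47e-04), while TH was not called. SFN, which encodes a phosphoprotein-binding adaptor best known from epithelia, was among the 15 largest rises under the naming rule, at 18.8, 11.9, 7.11, 22.2 and 31.0 CPM against 0 to 0.143 CPM (median 0.0636) (8.04 ± 0.41, adjusted p = 1.46e-05).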
